A study of Mus musculus with 8 samples.

Results

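The CIP/KIP family of cell cycle inhibitors has 3 genes in the mouse, Cdkn1a, Cdkn1b and Cdkn1c, which encode the proteins p21, p27 and p57. They were found by symbol among the 54418 Ensembl genes of the deposited tables, and all 3 were among the 16011 genes that passed a filter on low counts. The set was selected on values of the same contrast that is described here, in which Cdkn1c was known to be higher in Bmi1-deleted cells, so the genotype differences of the 3 genes are given as a description without p-values. The libraries came from melanocyte stem cells, the hair follicle cells that replace pigment cells at each hair cycle, sorted from dorsal skin at postnatal day 21. All mice were of mixed C57Bl-6;129Sv background, carried Bmi1fl/fl, Dct-rtTA and TRE-H2B-GFP and were fed doxycycline, so sorted cells were marked by a histone-GFP switched on where Dct, a melanin synthesis gene, is active. The 4 control libraries had no Cre, and the 4 Bmi1-deleted libraries also carried Tyrosinase-Cre, which acts in cells that have used the tyrosinase promoter. No label says whether a library came from 1 animal or a pool, so the tests measure only the spread between these samples.

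CIP/KIP proteins bind cyclin and cyclin-dependent kinase (CDK) complexes and hold cells before S phase. p21 is best known as a target of p53 after DNA damage, p27 gathers in cells that have stopped dividing and is destroyed through the ubiquitin ligase subunit Skp2, and p57 is linked to quiescence in several stem cells. Cdkn1c is imprinted: in the mouse it is read mainly from the maternal chromosome, and on the paternal one the non-coding RNA Kcnq1ot1 silences it. Bmi1 is a subunit of Polycomb repressive complex 1, and its best known cell cycle target is the other inhibitor family, INK4, at the Cdkn2a locus.

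Libraries held 8882656 to 10368174 counts. The targeted gene Bmi1 held 705 to 859 counts in controls and 607 to 713 after deletion. In CPM, counts scaled to library size, this was 75.4 to 97.2 against 68.8 to 70.8, with no overlap (log2 change −0.26, SE 0.12, n = 4, edgeR adjusted p = 0.607). Per transcript length, in the recomputed TPM described below, Bmi1 was at 160 ± 25.2 and 81.3 ± 25.5 (SD, n = 4). The labels do not name the deleted exons, so these reads may lie outside them. The melanocyte markers Dct, Pmel and Sox10 were at 1970 to 6450, 253 to 981 and 353 to 516 CPM over the 8 libraries. Markers of fibroblasts and Schwann cells were present as well, with mostly positive log2 changes in the Bmi1-deleted group that did not pass the test, and those values stand beside the results they touch. By Xist and Y-linked counts, 2 of the 4 controls and 1 of the 4 Bmi1-deleted libraries were female. In bulk samples fewer cells of a type and less RNA per cell cannot be told apart.

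Cdkn1a lies on chromosome 17 (ENSMUSG00000023067, mm10, 29090976 to 29100727, plus strand), Cdkn1b on chromosome 6 (ENSMUSG00000003031, 134920401 to 134925513, plus strand) and Cdkn1c on chromosome 7 (ENSMUSG00000037664, 143458339 to 143461050, minus strand). Their start regions, 250 bases before to 50 after the start, are shown with each CpG in capitals because Polycomb complexes of mammals gather mostly at CpG-rich starts. The RefSeq table (GRCm38.p6) held 2 start regions of Cdkn1a and 1 of Cdkn1b, and Cdkn1c had no entry.

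Cdkn1a, chr17:29090729-29091028, plus strand: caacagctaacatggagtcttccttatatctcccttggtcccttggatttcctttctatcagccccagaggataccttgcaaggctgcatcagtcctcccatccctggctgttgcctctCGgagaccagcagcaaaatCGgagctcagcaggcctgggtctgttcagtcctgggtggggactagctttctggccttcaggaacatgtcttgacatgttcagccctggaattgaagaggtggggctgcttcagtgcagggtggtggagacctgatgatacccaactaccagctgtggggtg
Cdkn1a, chr17:29093519-29093818, plus strand: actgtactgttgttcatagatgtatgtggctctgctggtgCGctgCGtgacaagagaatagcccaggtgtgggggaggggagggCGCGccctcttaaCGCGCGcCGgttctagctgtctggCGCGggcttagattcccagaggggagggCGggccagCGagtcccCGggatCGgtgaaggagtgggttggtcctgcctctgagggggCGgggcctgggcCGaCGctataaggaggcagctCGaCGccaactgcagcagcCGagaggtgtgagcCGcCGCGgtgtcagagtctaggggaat
Cdkn1b, chr6:134920151-134920450, plus strand: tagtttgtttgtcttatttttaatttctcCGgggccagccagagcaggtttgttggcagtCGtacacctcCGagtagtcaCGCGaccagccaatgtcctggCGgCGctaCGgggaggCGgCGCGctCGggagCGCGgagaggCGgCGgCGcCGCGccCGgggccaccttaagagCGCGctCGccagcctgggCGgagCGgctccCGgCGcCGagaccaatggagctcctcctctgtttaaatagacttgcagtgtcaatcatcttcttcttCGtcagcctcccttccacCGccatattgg

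The starts of Cdkn1a were unlike each other. The first held 2 CpG in its 300 bases and was 54.7% G or C, and 85.9% of the 32817 start regions in the table held as many CpG or more. The second held 23 CpG and was 64.7% G or C, a CpG count that 21.5% of regions reached. Cdkn1b had 30 CpG, a count that 11.7% of regions reached, and was 62.0% G or C, against medians of 7 CpG and 52.7% over all regions. GC boxes (GGGCGG, either strand), the sites of Sp factors, were found at 2 positions in the second Cdkn1a region and 1 in Cdkn1b, and 35.6% of all regions held at least 1. CCAAT boxes (CCAAT, either strand) were found at 3 positions in Cdkn1b and at none in either Cdkn1a region, and 37.4% of regions held 1 or more. No region of either gene held the E-box CACGTG, which 7.1% of all regions held. The deposited values are per gene, so which start was used was not measured.

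Per length, Cdkn1a was the most abundant of the 3 in all 8 libraries. Levels between genes were compared in TPM, abundance scaled to transcript length and library size, recomputed without Gm23935 and CT010467.1, 2 genes that took 74.0% to 85.9% of the deposited TPM. On this scale the control libraries 1 to 4 held 125, 113, 128 and 110 TPM of Cdkn1a, a mean of 119 ± 8.94 (SD, n = 4). Cdkn1b, which in CPM stood higher than Cdkn1a in controls, had 78.9, 74.4, 72.4 and 65.7 TPM, a mean of 72.9 ± 5.49. Cdkn1c had 55.4, 21.9, 37.4 and 27.7 TPM, a mean of 35.6 ± 14.7, and was the lowest of the 3 in every control library. Within libraries Cdkn1a exceeded Cdkn1b by a mean of 0.89 on the log2(TPM + 1) scale (range 0.59 to 1.23, n = 8) and Cdkn1c by 1.48 (range 0.84 to 2.31). Both differences gave an exact two-sided sign-flip p of 0.00781, the smallest that 8 libraries allow, and 0.0117 after Benjamini-Hochberg adjustment over the 3 pairs. Cdkn1b exceeded Cdkn1c by 0.59 (range −0.22 to 1.72, exact p = 0.0625, adjusted 0.0625), which missed the threshold over both genotypes together. Among controls the difference was 1.09 ± 0.51 (SD, n = 4) and positive in all 4 (0.50 to 1.72), where the smallest exact p is 0.125, and among deleted libraries it was 0.08 ± 0.43, within its spread.

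The INK4 inhibitors had lower mean levels per length, a difference that was not tested. In control libraries the mean of Cdkn2d (p19) was 22.8 ± 11.1 TPM, although in control 2 its 27.9 TPM exceeded the 21.9 TPM of Cdkn1c. Cdkn2c (p18) was at 6.51 ± 1.33 TPM, followed by Cdkn2b (p15) with 2.26 ± 1.89 TPM, while Cdkn2a was listed at 0 counts in all 4. In Bmi1-deleted libraries Cdkn2a reached 14.3 ± 5.62 TPM (38 to 85 counts), against 73.5 ± 17.0 TPM for Cdkn1c.

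In CPM, Cdkn1c was higher in every Bmi1-deleted library than in any control. Its counts were 239, 185, 179 and 163 in control libraries 1 to 4 and 466, 593, 464 and 331 in Bmi1-deleted libraries 1 to 4. Scaled by library size with the TMM method, these were 25.4, 19.1, 19.2 and 18.4 CPM against 51.4, 58.9, 51.6 and 37.5 CPM. Control 1 was the highest control and Bmi1-deleted 4 the lowest deleted library, and the groups did not overlap. The means were 20.5 ± 3.27 and 49.9 ± 8.93 CPM (SD, n = 4), a ratio of 2.43 and a log2 change of 1.28 (SE 0.19). The same-numbered libraries gave log2 ratios of 1.02, 1.63, 1.43 and 1.03. Ordered by log2 change from the most positive, Cdkn1c was at place 289 of 16011.

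Cdkn1a, the p53 target, was also higher in every Bmi1-deleted library, by a smaller ratio. Its control libraries held 1175, 1092, 1211 and 1006 counts and its Bmi1-deleted libraries 1401, 1830, 1398 and 1671. In CPM controls 1 to 4 had 125, 112, 130 and 114 and deleted libraries 1 to 4 had 155, 182, 155 and 189, and the groups did not overlap. The means were 120 ± 8.37 and 170 ± 18.0 CPM (SD, n = 4), a ratio of 1.42 and a log2 change of 0.50 (SE 0.12). The log2 ratios of same-numbered libraries were 0.31, 0.69, 0.26 and 0.74, with the larger values in replicates 2 and 4.

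Cdkn1b, the p27 gene, overlapped between the groups. It had 157, 150, 131 and 135 CPM in control libraries 1 to 4 and 133, 153, 149 and 157 CPM in Bmi1-deleted libraries 1 to 4, from 1197 to 1539 counts. The means were 143 ± 12.3 and 148 ± 10.4 CPM (SD, n = 4), a ratio of 1.04 and a log2 change of 0.05 (SE 0.11). Same-numbered libraries gave −0.23, 0.03, 0.20 and 0.22, so library 1 went against the others.

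**Figure D1:**
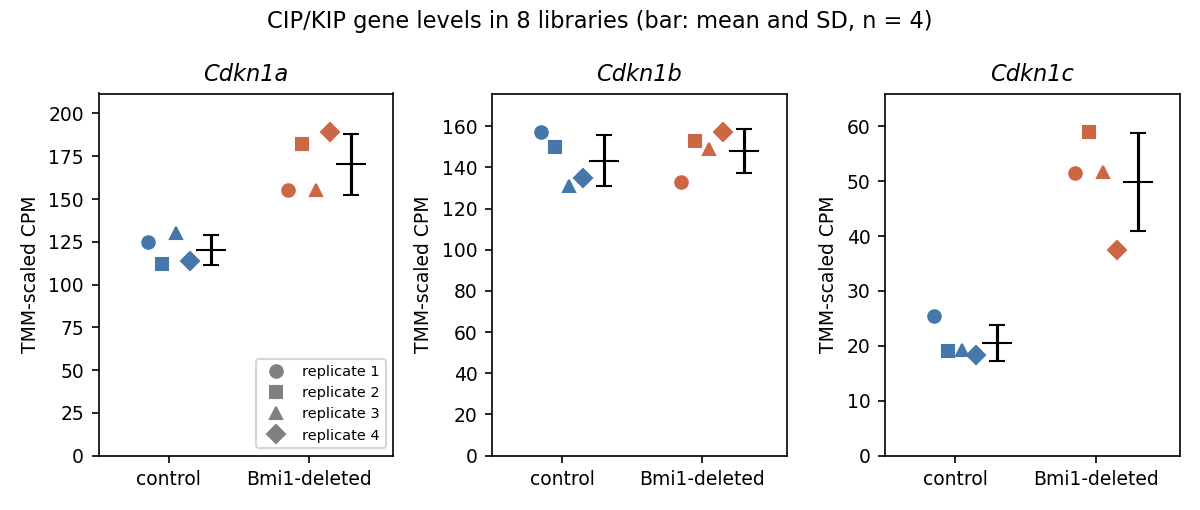
TMM-scaled CPM of Cdkn1a, Cdkn1b and Cdkn1c, 1 symbol per library with its shape giving the replicate number, and bars giving the mean and SD of 4 libraries. Cdkn1a (112 to 130 against 155 to 189 CPM) and Cdkn1c (18.4 to 25.4 against 37.5 to 58.9 CPM) are separated by genotype, and Cdkn1b is not.

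By edgeR's quasi-likelihood test with Benjamini-Hochberg adjustment, 1 of the 3 genes, Cdkn1c, was called higher at the threshold of 0.05, where 0.0874% of all 16011 genes were called higher. Groups did not overlap, with the Bmi1-deleted libraries higher, for 2 of the 3 genes, against 2.79% of all genes. With the replicate number as a block 2 of the 3, Cdkn1a and Cdkn1c, were called higher, against 1.71% of all genes. Nothing is read from these counts, since this contrast chose the genes. When 1 library at a time was dropped, the Cdkn1c call stood on 2 of 8 occasions (control 1 or Bmi1-deleted 4 dropped) and was lost when any of the other 6 (control 2, 3 or 4, Bmi1-deleted 1, 2 or 3) was, with log2 changes of 1.19 to 1.41. With the block and 1 pair left out at a time, fits chosen after seeing the data, Cdkn1c was called in 4 of 4 and Cdkn1a in 2 of 4, those without pair 1 and pair 3. Over all genes the libraries numbered 1 and 2 resembled each other, as did those numbered 3 and 4, although no label gives a batch. Within these subsets, 1 and 2 first, Cdkn1c had 1.31 (SE 0.23) and 1.23 (SE 0.26), Cdkn1a 0.50 (SE 0.15) and 0.48 (SE 0.16), and Cdkn1b −0.10 (SE 0.14) and 0.19 (SE 0.14).

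**Figure D2:**
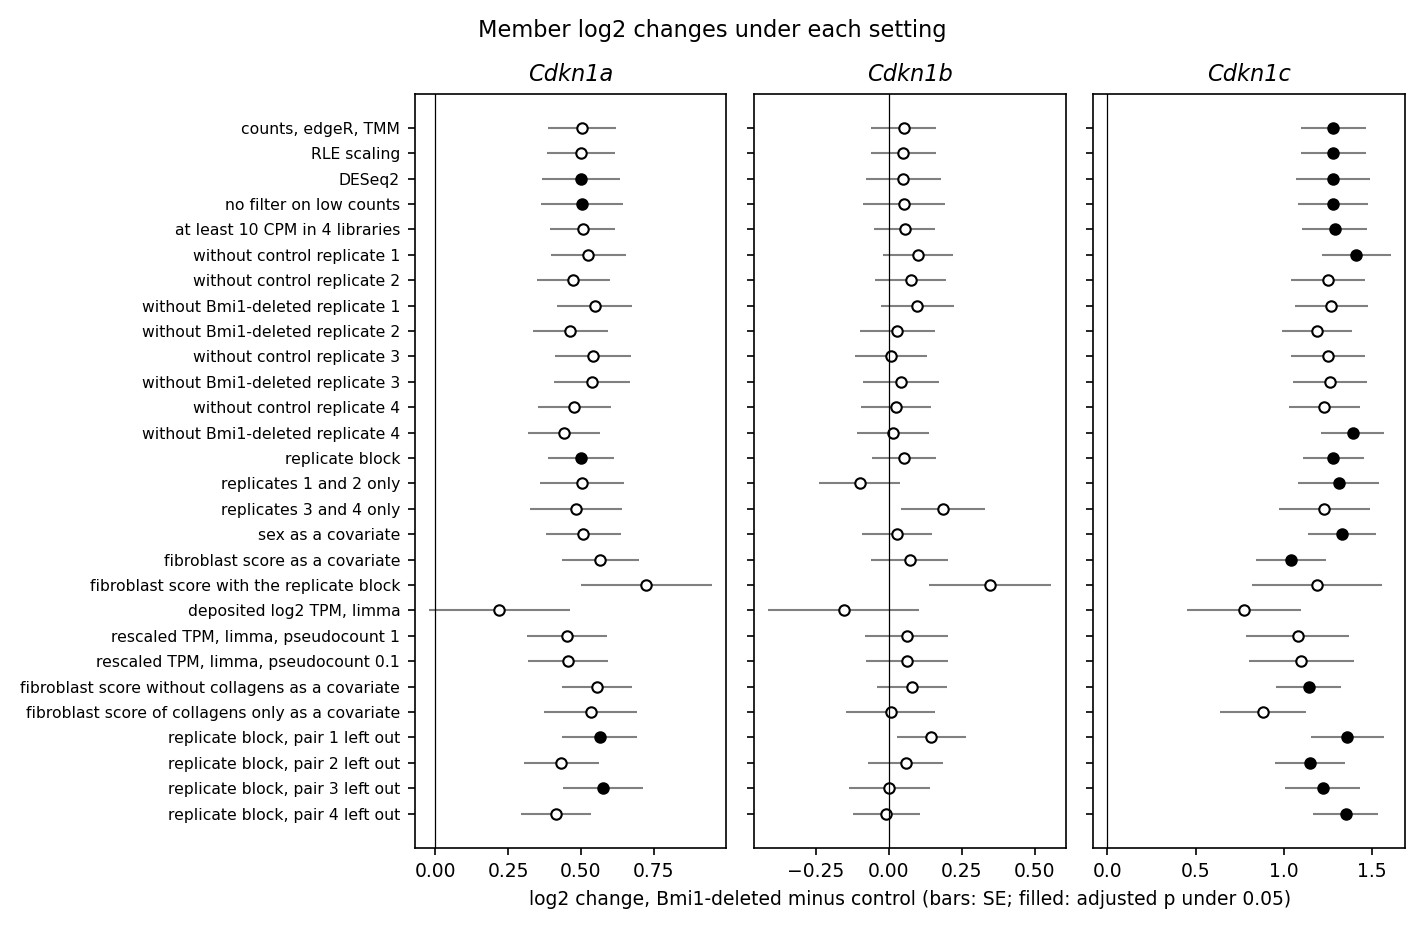
Log2 change of each gene, Bmi1-deleted minus control, with its SE, under every setting tried, with filled points where the adjusted p is under 0.05. Cdkn1c lies between 0.78 and 1.41 and Cdkn1a between 0.22 and 0.73, while Cdkn1b lies on both sides of 0.

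On the scale per length the Cdkn1c groups overlapped. Recomputed TPM were 75.5, 86.2, 83.4 and 49.0 in Bmi1-deleted libraries 1 to 4, so the lowest of them was under the 55.4 TPM of control 1, and the ratio of means was 2.06. Cdkn1a remained apart, at 147, 175, 150 and 181 TPM against 110 to 128, and Cdkn1b overlapped, at 69.5, 73.7, 80.2 and 80.8 against 65.7 to 78.9. No member was called on TPM by limma, the test used for the log2 values. The summed TPM of the 3 genes was 260, 209, 237 and 203 in controls 1 to 4 and 292, 335, 314 and 310 in deleted libraries 1 to 4, or 227 ± 26.2 and 313 ± 17.4 (SD, n = 4), without overlap. Cdkn1a made up 52.5% ± 2.82 of this sum in control and 52.2% ± 4.38 in Bmi1-deleted libraries. The share of Cdkn1c was 15.3% ± 4.57 and 23.5% ± 5.15, and that of Cdkn1b, whose own level overlapped between groups, was 32.2% ± 2.44 and 24.3% ± 1.83. Shares add to the whole, so 1 cannot rise without another falling.

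**Figure D3:**
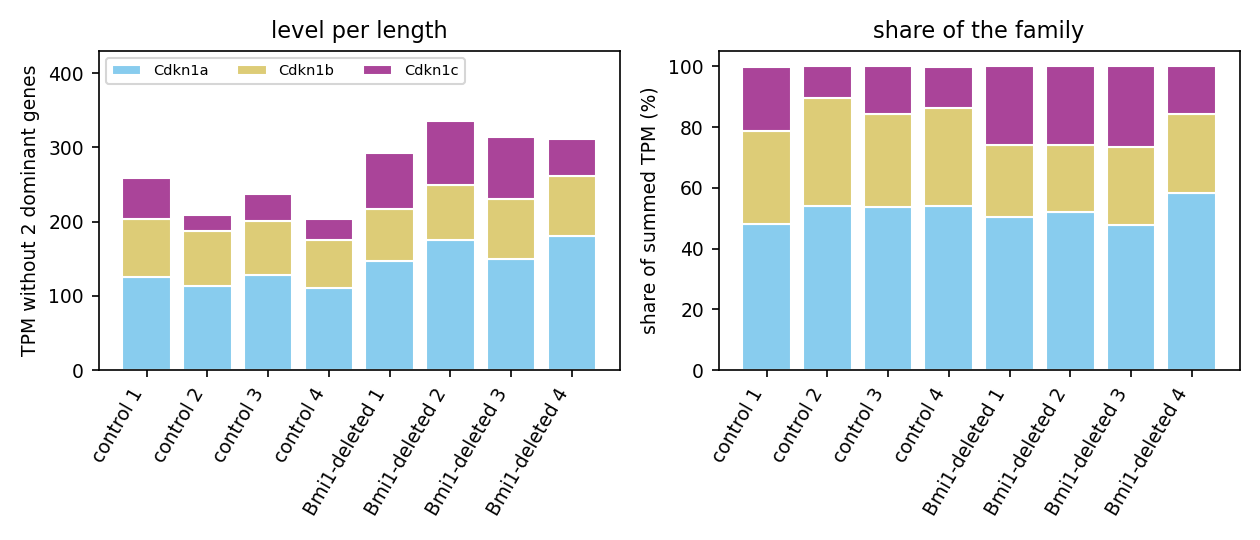
Stacked TPM, recomputed without the 2 dominant genes, of the 3 CIP/KIP genes in each library (left) and each gene's share of their sum in percent (right). The sum runs from 203 to 260 in control and from 292 to 335 in Bmi1-deleted libraries, and the Cdkn1b share is 30.4% to 35.6% in control and 22.0% to 26.0% in Bmi1-deleted libraries.

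Fibroblast markers moved with the same groups. Of 18 markers 16 were tested, 15 of them had a positive log2 change, with a median of 0.88 against 0.0062 for all genes, and 0 passed edgeR's test, while 9 had an unadjusted p under 0.05, DESeq2 called 4 higher and the fit with the block called 7 higher. Fbln1 was the 1 tested marker with a negative change (−0.74). Of all genes 50.7% had a positive change, 8.27% had an unadjusted p under 0.05, and DESeq2 called 0.555% higher and 0.275% lower. The fit with the block called 1.71% of all 16011 genes higher and 113 of them lower, or 2.41% in either direction. The summed level of the 18 fibroblast markers was 5050 to 8880 CPM in control and 8680 to 18600 CPM in Bmi1-deleted libraries. Most of this sum was collagen: Col3a1, Col1a2 and Col1a1 had means of 2750, 1310 and 1260 CPM in control and 5350, 2560 and 3130 CPM in Bmi1-deleted libraries. Of the defining markers Col1a1 had 1000 to 5390 CPM and Pdgfra 1.02 to 15.8 CPM, with none at 0. The mean log2(CPM + 1) of the 16 tested markers, used as a score, was 5.83, 5.82, 5.33 and 5.24 in control libraries 1 to 4 and 6.99, 6.69, 5.99 and 5.37 in Bmi1-deleted libraries 1 to 4. Bmi1-deleted 4 had the lowest score of its group, below control 1 and 2. Its Cdkn1c level of 37.5 CPM was also the lowest of its group, though above all 4 controls, and its Cdkn1a level of 189 CPM was the highest of its group. With the score as a covariate Cdkn1c had a log2 change of 1.04 (SE 0.20) and was called, and Cdkn1a had 0.57 (SE 0.13) and was not. Scores chosen after seeing the data gave 1.14 (SE 0.19) for Cdkn1c when collagens were left out, with the call kept, and 0.88 (SE 0.24) when only collagens were used, with the call lost. With both the score and the block it had 1.19 (SE 0.37) and was not called. With the score 0.169% of all genes were called higher, and these calls describe genes chosen on this contrast and weigh nothing. The 6 pericyte and smooth muscle markers tested all had positive changes (median 0.62, 0 passed, 1 with an unadjusted p under 0.05, 0 by DESeq2), at a summed 48.2 to 84.1 and 57.7 to 202 CPM; Rgs5, their defining gene, was at 0 in at least 1 control library. Of the 10 melanocyte markers 9 had negative changes (median −0.66, 0 passed, 7 with an unadjusted p under 0.05, 3 lower by DESeq2), at a summed 9600 to 15700 CPM among controls and 5470 to 11100 CPM after deletion; 8 fell with the block. All 12 Schwann cell markers had positive changes (median 0.47, 0 passed, 5 with an unadjusted p under 0.05, 3 higher by DESeq2, 7 with the block), at a summed 2830 to 5190 and 5010 to 6990 CPM. Positive changes were also seen for 7 of 8 endothelial markers tested (median 0.85, 23.3 to 48.1 and 32.7 to 131 CPM), 6 of 7 immune markers (median 0.61, 38.3 to 87.7 and 70.5 to 157 CPM) and 8 of 12 keratinocyte markers (median 0.15, 2250 to 2610 and 1910 to 3640 CPM). None of these passed edgeR's test (3, 1 and 3 with an unadjusted p under 0.05) or DESeq2's, and 2 keratinocyte markers were called higher with the block. The part of any of these cell types, fibroblasts and Schwann cells included, in the Cdkn1c and Cdkn1a values was not tested. The fits with the fibroblast score cannot separate it from genotype, since most Bmi1-deleted libraries scored above the controls.

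**Figure D4:**
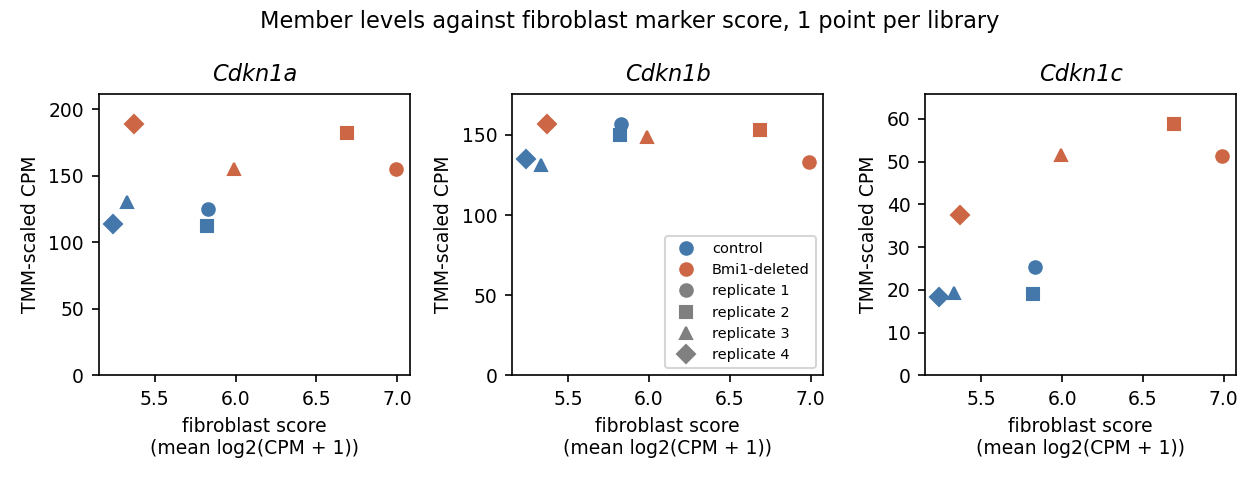
Level of each gene in TMM-scaled CPM against the fibroblast score, the mean log2(CPM + 1) of 16 markers, with 1 symbol per library, colour for genotype and shape for replicate number. Bmi1-deleted 4, at a score of 5.37, sits above all controls for Cdkn1a and Cdkn1c, and has the lowest score and the lowest Cdkn1c level of its group.

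Around Cdkn1c, the other genes of the imprinted stretch of chromosome 7 were either barely detected or did not pass the test. The list for the region, which runs from H19 to Dhcr7, had 20 genes besides Cdkn1c in the tables, and 9 were tested. Of these 0 rose and 0 fell by edgeR, against 0.0937% of all genes called in either direction, and DESeq2 called 0. A positive log2 change was found for 7 of the 9, with a median of 0.18 against 0.0062 for all genes. An unadjusted p under 0.05 was found for 2, Igf2 and, named after its values were seen, Osbpl5 (log2 change 0.43, SE 0.18, edgeR adjusted p = 0.556). Kcnq1ot1, the paternal silencing RNA whose start lies 164.5 kb from that of Cdkn1c, stood at 169 ± 42.7 CPM in control and 162 ± 25.1 CPM in Bmi1-deleted libraries (log2 change −0.06, SE 0.17, n = 4, edgeR adjusted p = 0.975). Nap1l4, a histone chaperone gene 88.1 kb away, had 79.6 ± 12.2 and 81.6 ± 5.88 CPM, and Cd81, a tetraspanin gene 408.3 kb away, had 197 ± 26.9 and 224 ± 28.0 CPM (edgeR adjusted p = 0.981 and 0.808). The nearest neighbours Slc22a18 and Phlda2, which are imprinted with the same parental bias as Cdkn1c, had at most 10 and 11 counts in any library, too few to compare. Gm44732, annotated on the opposite strand within Cdkn1c, had 0 to 5 counts. The growth factor gene Igf2, at the far end of the region, had 24, 15, 20 and 20 counts in control and 65, 68, 37 and 55 in Bmi1-deleted libraries (log2 change 1.51, SE 0.44, edgeR adjusted p = 0.304).

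**Figure D5:**
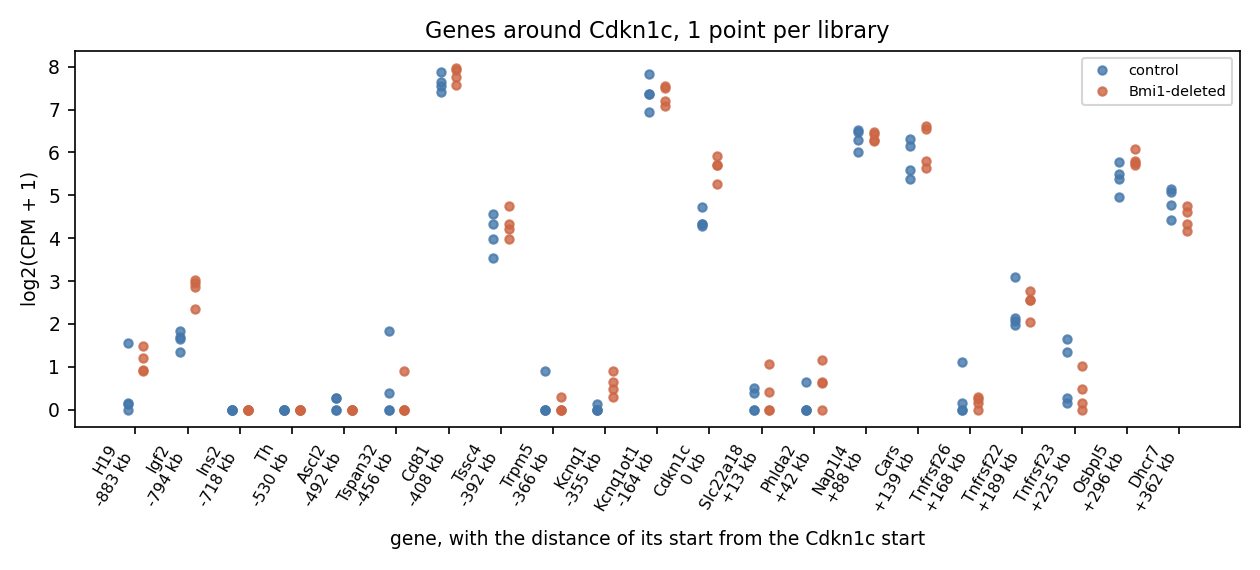
Level of each gene around Cdkn1c as log2(CPM + 1), 1 point per library, in order along chromosome 7 with the distance of each start from the Cdkn1c start in kb. Cdkn1c is separated by genotype, Kcnq1ot1, Cd81 and Nap1l4 overlap, and Igf2 is separated at 15 to 68 counts.

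Among imprinted genes listed as a network with Cdkn1c, a list that shares H19 and Igf2 with the region, others also rose. Of 22 on the list 15 were tested, 2 rose and 0 fell, with a median log2 change of 0.57 against 0.0062 for all genes, of which 0.0874% rose. DESeq2 called 3 higher. The list was chosen with earlier results of these data known, so nothing is read from these counts, and joint regulation with Cdkn1c was not tested. Peg3, a zinc finger gene, had 149 ± 26.4 and 308 ± 11.7 CPM (log2 change 1.05, SE 0.13, n = 4, edgeR adjusted p = 0.00552), and Zdbf2 had 25.1 ± 4.70 and 58.0 ± 9.72 CPM (log2 change 1.21, SE 0.19, edgeR adjusted p = 0.019). The most abundant members were Gnas, a G protein subunit gene, at 537 ± 77.5 and 481 ± 14.4 CPM, and Igf2r, the receptor that clears Igf2, at 268 ± 39.8 and 256 ± 28.3 CPM (edgeR adjusted p = 0.825 and 0.952). Plagl1, a zinc finger factor known to activate Cdkn1c, had 359 ± 85.2 CPM in control and 221 ± 67.0 CPM in Bmi1-deleted libraries (log2 change −0.70, SE 0.23, edgeR adjusted p = 0.41, or 0.000756 with the replicate block). With the fibroblast score its edgeR adjusted p was 0.568, and its part in the Cdkn1c values was not tested. With the block 5 of the list rose and 1 fell, where 2.41% of all genes were called in either direction. The fibroblast score differed between the same libraries, and its part in these values was not tested. With the score as a covariate Peg3 and Zdbf2 had edgeR adjusted p = 0.00346 and 0.00881. The score was higher in most Bmi1-deleted libraries, so that fit cannot separate it from genotype.

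Other known transcriptional regulators of the family did not pass. All 25 on the list were tested, and 0 rose and 0 fell by edgeR (median log2 change 0.04, 4 with an unadjusted p under 0.05, 0 called by DESeq2). Among all genes edgeR called only 0.0937% in either direction, so 0 calls do not set this list or those below apart. An unadjusted p under 0.05 was found for 8.27% of all genes. Mitf, the melanocyte master regulator that can activate Cdkn1a, had 911 ± 219 and 583 ± 228 CPM (log2 change −0.64, SE 0.28, n = 4, edgeR adjusted p = 0.585, or 0.00242 with the block). With the fibroblast score its edgeR adjusted p was 0.816. Mitf is also among the 10 melanocyte markers, of which 1 had a positive change (median −0.66). Whether its change differs from that of the lineage as a whole was not tested. Klf4, a zinc finger factor that can activate Cdkn1a, had 435 ± 94.2 and 615 ± 178 CPM (edgeR adjusted p = 0.553, 0.374 with the block). Mitf and Plagl1 were the 2 members of this list that fell with the block, where 2.41% of all genes were called in either direction. The genes of p53 and of the FOXO factors that activate Cdkn1b are named outside the naming rule: Trp53 had 50.7 ± 2.85 and 54.7 ± 2.13 CPM, and Foxo3 had 192 ± 15.6 and 193 ± 22.0 CPM (edgeR adjusted p = 0.908 and 0.991).

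Other p53 targets did not pass, and neither did Cdkn1a in the edgeR fit with the filter on low counts and without the block. Cdkn1a was called by DESeq2, by edgeR without that filter, and with the block. Of 28 on the list 27 were tested, 0 rose and 0 fell by edgeR, with or without the block, although 22 of the 27 had a positive log2 change (median 0.13, against 50.7% positive and a median of 0.0062 over all genes). An unadjusted p under 0.05 was found for 4, against 8.27% of all genes, and DESeq2 called 0. By adjusted p edgeR called 0.0937% of all genes in either direction, or 2.41% with the block. After adding the fibroblast score to the fit, 15 of the 27 were positive (median 0.045), against 48.8% of all genes. Plk2, a stress-responsive kinase gene, had 251 ± 20.1 and 305 ± 19.1 CPM (log2 change 0.28, SE 0.11, n = 4, edgeR adjusted p = 0.514). Btg2, an anti-proliferative gene, had 199 ± 102 and 229 ± 130 CPM, and Perp, a gene of cell adhesion and cell death, 85.6 ± 17.0 and 101 ± 44.7 CPM (edgeR adjusted p = 0.973 and 0.913). Named after their values were seen, the other 3 with an unadjusted p under 0.05, all with positive changes, were Gdf15 (log2 change 1.95), Phlda3 (0.63) and Ccng1 (0.44), with edgeR adjusted p = 0.493, 0.582 and 0.525. Mdm2, the p53 ubiquitin ligase gene and likewise outside the rule, had 76.6 ± 5.32 and 72.2 ± 8.31 CPM (edgeR adjusted p = 0.933). Of the 14 FOXO targets other than Cdkn1b, all tested, 0 rose and 0 fell (median −0.01, 1 with an unadjusted p under 0.05, 0 by DESeq2). Irs2, an insulin receptor substrate gene, had 323 ± 34.8 and 358 ± 26.3 CPM and Txnip, a thioredoxin inhibitor gene, 314 ± 69.3 and 332 ± 31.5 CPM (edgeR adjusted p = 0.828 and 0.953).

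Genes of the kinases that CIP/KIP proteins bind also did not pass. Of 14 cyclin, CDK and PCNA genes 13 were tested, and 0 rose and 0 fell by edgeR (median log2 change −0.26), against 0.0937% of all genes called. An unadjusted p under 0.05 was found for 0, against 8.27% of all genes, and DESeq2 called 0. With the block 1 fell, where 2.41% of all genes were called in either direction. That gene was Cdk2, the S-phase kinase that all 3 inhibitors bind, with 165 ± 45.0 and 107 ± 48.5 CPM (log2 change −0.62, SE 0.33, n = 4, edgeR adjusted p = 0.689, or 0.00458 with the block). With the fibroblast score its edgeR adjusted p was 0.979. The melanocyte markers had a median change of −0.66, and the part of a smaller melanocyte share in the Cdk2 value was not tested. The D-type cyclin genes Ccnd2 and Ccnd3 had 190 ± 42.3 and 173 ± 4.54 CPM, and 134 ± 29.1 and 144 ± 23.3 CPM (edgeR adjusted p = 0.895 and 0.935). Ccna1, the member left untested, was at 0 counts in every library.

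The machinery that destroys or exports the inhibitors did not pass either. The shares over all genes were 0.0937% called by edgeR, 2.41% called with the block and 8.27% with an unadjusted p under 0.05. All 16 genes of the turnover list in the tables were tested, and 0 rose and 0 fell by edgeR, with or without the block (median −0.04, 0 with an unadjusted p under 0.05, 0 by DESeq2). Its most abundant members were Ddb1, an adaptor of the ligase that destroys p21 in S phase, with 417 ± 32.0 and 456 ± 24.5 CPM, the Skp2 adaptor Skp1a with 159 ± 25.6 and 162 ± 12.8 CPM, and the nuclear exporter Xpo1 with 140 ± 19.4 and 132 ± 12.2 CPM (n = 4, edgeR adjusted p = 0.853, 0.987 and 0.931). Skp2 itself, named outside the rule, was at 6.52 ± 3.73 and 4.16 ± 2.07 CPM (edgeR adjusted p = 0.826), a level at which only a large difference could be seen.

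Downstream of the kinases lie the pocket proteins, which hold back E2F factors until phosphorylated. All 11 pocket protein and E2F genes were tested, and 0 rose and 0 fell by edgeR (median −0.12, 2 with an unadjusted p under 0.05, 0 by DESeq2). Over all genes edgeR called 0.0937% in either direction and 2.41% with the block, and 8.27% had an unadjusted p under 0.05. Rbl2, the p130 pocket protein gene of resting cells and also a FOXO target, had 172 ± 7.79 CPM in control and 121 ± 22.8 CPM in Bmi1-deleted libraries (log2 change −0.50, SE 0.14, n = 4, edgeR adjusted p = 0.257) and was the 1 gene of each of its lists that fell with the block (adjusted p = 0.0332). With the fibroblast score the edgeR adjusted p of Rbl2 was 0.41. Rb1 had 57.9 ± 10.2 and 59.0 ± 11.5 CPM and E2f4 48.3 ± 8.53 and 41.8 ± 9.17 CPM (edgeR adjusted p = 0.987 and 0.864). Proliferation genes varied widely between libraries of 1 group. Of 20 on the list 19 were tested, 0 rose and 0 fell by edgeR, with or without the block (median −0.28, 3 with an unadjusted p under 0.05, 0 by DESeq2), and 16 of the 19 had a negative log2 change. With the fibroblast score as a covariate the direction turned, with 13 of the 19 positive and a median of 0.23. Mki67, a marker of cycling cells, had 67.7 ± 44.6 and 53.9 ± 31.2 CPM, the helicase subunit genes Mcm4 and Mcm7 had 50.8 ± 10.8 and 37.6 ± 1.24 CPM, and 38.5 ± 8.95 and 33.0 ± 7.32 CPM (edgeR adjusted p = 0.941, 0.501 and 0.876).

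Genes with the most similar pattern were sought among 8753 genes with a mean of at least 10 CPM over the 8 libraries. The measure was Pearson's r of log2(CPM + 1) over these libraries. For Cdkn1c these were Lamc1, a laminin chain gene, and Erbb3, a neuregulin receptor gene (both r = 0.984), and Thbs3, a matrix protein gene (r = 0.974). For Cdkn1a they included Hspa2 (r = 0.959) and Zfp354c (r = 0.958), and for Cdkn1b they were the insulator gene Ctcf (r = 0.974), Mat2b (r = 0.963) and Slc22a5 (r = 0.949). Thbs3 had means of 9.09 CPM in control and 20.4 CPM in Bmi1-deleted libraries, and Zfp354c 8.11 and 13.4 CPM. Both met the minimum only through the Bmi1-deleted group. After centring within genotype, which removes the difference between the groups, the nearest to Cdkn1c were Eid1 (r = 0.986), Pcx (r = 0.98) and Mcrs1 (r = 0.973), and to Cdkn1a Ids (r = 0.955), Slc43a1 (r = 0.951) and Cep164 (r = 0.949). Those nearest to Cdkn1b after centring were Ctcf (r = 0.974), Mat2b (r = 0.972) and Mtmr12 (r = 0.957). These are the highest values of 8753 over only 8 libraries that share their genotype, fibroblast and Schwann marker differences, and no p is given.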

How the data were processed

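RNA was measured in 4 control and 4 Bmi1-deleted libraries, grouped by genotype and numbered as in the titles. Per the labels' protocols, RNA of more than 10000 sorted cells was extracted, and 1 ng per library was prepared with a stranded total RNA kit and 2 rounds of 15 PCR cycles, so counts include PCR copies. The authors deposited estimated counts per gene as whole numbers, together with log2 values of TPM plus 1; the submitters' processing notes name Salmon 1.2.1 and mm10. Annotation version and strand setting were not stated. Names and positions came from GENCODE M21, in which 54096 of 54418 identifiers had a symbol, and start regions from RefSeq (GRCm38.p6).

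In R 4.3.3, edgeR 4.0.16 was run with filterByExpr, TMM scaling and the robust quasi-likelihood F test, with Benjamini-Hochberg adjustment over 16011 genes and a threshold of 0.05. A gene left without counts in 1 group could pass the filter through the other. Alternatives used DESeq2 1.42.0, limma 3.58.1 on TPM, other filters, covariates (sex, fibroblast score), subsets and left-out libraries. TPM differences between the 3 genes were tested by exact two-sided sign flips over 8 libraries. Within a group, pairs of libraries gave a chi-square per degree of freedom of 12.5 to 38.8, so no pair agreed within counting noise, which does not show whether they came from separate animals.

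After centring within genotype, same-numbered libraries correlated across genes at 0.14 to 0.224, all 4 over 0.1, though only 4 of 8 libraries were closest to the one sharing their number. Libraries of unlike number within 1 and 2, or within 3 and 4, correlated across genotypes at 0.15 to 0.243. A tie by number was thus not told apart from a split into numbers 1 and 2 against 3 and 4. No label states a pairing, and the replicate block is only an alternative fit. Values with it stand beside results whose call they change.

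Genes named were the 3 family members, list genes that passed, the 3 most abundant tested genes of each list, and the 3 most similar genes per member by each measure, leaving out predicted genes; some of these are not reported here. The members and lists were chosen with earlier results of these data known. Overlapping and antisense reads cannot be told apart where strand was not used.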

Additional observations from a re-analysis of the deposited data

Results flagged for a closer look

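In 18 groups of 4 values (3 genes, CPM, recomputed TPM and family share, 2 genotypes), 3 had 1 library far from the other 3, where chance flags about 1 in 20 independent groups; these groups share genes and libraries and are not independent. Control 1 had a Cdkn1c level of 25.4 CPM, above the 18.4 to 19.2 CPM of the other controls. The same library had the lowest Cdkn1a share of the summed TPM among controls, 48.2% against 53.8% to 54.0%. Bmi1-deleted 4 had a Cdkn1c share of 15.8%, below the 25.8% to 26.6% of the other Bmi1-deleted libraries.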

How the results depend on the processing

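Cdkn1c and Cdkn1a were positive under all 27 alternatives and Cdkn1b under 24, with log2 changes of 0.78 to 1.41, 0.22 to 0.73 and −0.16 to 0.35; Cdkn1c was called in 15, Cdkn1a in 5 and Cdkn1b in 0. The deposited log2 TPM shift the median of all genes by −0.14, and gave 0.22 for Cdkn1a, −0.155 for Cdkn1b and 0.775 for Cdkn1c, with 3 genes higher and 0 members called. The recomputed TPM with pseudocount 1 or 0.1 gave 2 genes higher, 0 lower and 0 members. RLE scaling gave 3 genes lower and the filter of 10 CPM in 4 libraries 2. DESeq2 gave 107 higher, 53 lower and 2 members, and no filter 259, 121 and 2. The replicate block, as a paired analysis, gave 273, 113 and 2, and with pair 1, 2, 3 or 4 left out 264, 89, 153 and 124 higher, 87, 24, 85 and 65 lower, and 2, 1, 2 and 1 members. Replicates 1 and 2 alone gave 83 higher and 73 lower with −0.0996 for Cdkn1b, and replicates 3 and 4 alone 6 lower, 0 members and 0.186 for Cdkn1b. The fibroblast score gave 27 and 7, without collagens 24 and 6, and from collagens only 67, 25 and 0 members, with 0.88 for Cdkn1c. With score and replicate block there were 103 higher, 33 lower and 0 members, with 0.725 for Cdkn1a and 0.348 for Cdkn1b. Leaving out 1 library gave 8 to 40 genes higher, 0 to 5 lower and 0 to 1 members called; 40 came without control 1, 8 without control 2 and 9 without Bmi1-deleted 2. With sex as a covariate 15 genes were higher and 1 lower. Cdkn1a, Cdkn1b and Cdkn1c then had changes of 0.51, 0.03 and 1.33, and no call among these 3 genes changed. The cause of these moves was not tested. The TPM differences between members kept their side of the threshold in all alternatives over 7 or 8 libraries; within 1 genotype the smallest exact p is 0.125. Nearest genes of Cdkn1a after centring changed with a minimum of 1 CPM, with 1 of 3 shared.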

Other observations

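The ratio of recomputed TPM to CPM follows the transcript length that the authors' quantification assigned to a gene. Relative to the median of the 8952 genes averaging 100 counts or more, it changed between the groups by −0.04 on the log2 scale for Cdkn1a, 0.02 for Cdkn1b and −0.17 for Cdkn1c. For Cdkn1c it varied more among control libraries (SD 0.41) than among Bmi1-deleted libraries (SD 0.12), so the TPM of control libraries carry a spread that their counts do not.

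Kcnq1, the host gene of Kcnq1ot1 and itself imprinted, had 1, 0, 0 and 0 counts in control libraries 1 to 4 and 8, 4, 5 and 2 in Bmi1-deleted libraries 1 to 4. Both groups are near the floor of 3 counts per library, and the gene was not tested. Lockd, a non-coding RNA gene beyond the end of Cdkn1b, had 3 to 42 counts and overlapped between the groups, at 1.88 ± 1.06 and 2.52 ± 1.70 CPM (SD, n = 4, edgeR adjusted p = 0.947).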
